A study of Mus musculus with 12 samples.

Results

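The 10 genes described here encode surface molecules of antigen-presenting cells that are counted among the costimulatory or checkpoint molecules. These genes are Cd80, Cd86, Cd40, Cd83, Cd274, Pdcd1lg2, Icosl, Tnfsf4, Havcr2 and Vsir. They were taken as a list of symbols and matched to the mouse Ensembl identifiers in the count tables, where all 10 were present among 53801 genes and all 10 passed the filter on low counts that left 20580 genes for testing. RNA-seq had been done on dendritic cells (DCs) sorted from the small intestine as CD103+CD11b- or CD103-CD11b+ cells, to ask how loss of Cbfb, the partner subunit of the Runx transcription factors, altered gene expression in each subset. Each of the 4 groups, wild type (WT) and Cbfb-cKO in either subset, held 3 samples, which the study's legend describes as coming from 3 different mice. All mice were of mixed background, the labels give no age or sex, and whether the WT mice carried the Cre transgene is not given for these samples. The cKO mice carried loxP-flanked Cbfb alleles and a CD11c-Cre transgene, which is active in CD11c+ cells and for which the study also detected some recombination in gut T cells.

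A T cell that meets antigen on a DC reads a second set of signals from surface molecules of the DC. CD80 and CD86 engage the activating receptor CD28 and the inhibitory receptor CTLA-4, whereas PD-L1 (encoded by Cd274) and PD-L2 (encoded by Pdcd1lg2) engage the inhibitory receptor PD-1. ICOS ligand and OX40 ligand (encoded by Tnfsf4) support T-cell responses that are already under way, CD40 receives help from CD40 ligand on T cells, and TIM-3 (encoded by Havcr2) and VISTA (encoded by Vsir) are counted among the checkpoint molecules. Gut DCs use such signals in balancing tolerance to food and microbes against immunity.

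Libraries held 2161929 to 5863484 counts on genes, and levels below are CPM, counts scaled to the library's total on genes after trimmed-mean (TMM) adjustment. The shallowest library was replicate 3 of cKO CD103-CD11b+ DCs, and it carried the highest level of 7 of the 10 genes among all 12 libraries. Within its group of 3 it was highest for 8 of the 10 genes and for 32.8% of all genes tested. The 10 genes summed to 3510 CPM in it, against 1790 and 2070 CPM in replicates 1 and 2. A list of 7 pan-DC markers was raised there too, at 5480 CPM against 3170 and 3270 CPM. Summed counts for the 8 markers of CD103+CD11b- DCs were 3200 to 5450 CPM in the CD103+CD11b- libraries and 508 to 1030 CPM in the CD103-CD11b+ libraries. The 8 markers of CD11b+ DCs summed to 1300 to 1390 CPM in WT and 1340 to 1840 CPM in cKO CD103-CD11b+ libraries. In CD103+CD11b- libraries they summed to 436 to 680 CPM in WT and 123 to 170 CPM in cKO. Between subsets, 4 of these 8 passed the test described below in WT, beside 18.8% of all genes tested, and 8 in cKO, beside 16.1%. WT subsets were thus less far apart in these markers. Cbfb itself was counted at 161 to 290 CPM in all 12 libraries, with log2 fold changes in cKO of 0.17 ± 0.19 (SE) in CD103+CD11b- and 0.14 ± 0.19 in CD103-CD11b+ DCs, and a count over the whole gene does not show whether its flanked part was deleted. The genotypes are therefore those the labels give. Xist, the RNA of the inactive X chromosome of female cells, was at 1310 to 1740 CPM in 6 libraries and at 0.291 to 3.33 CPM in the other 6, and in either subset 2 of 3 WT libraries but 1 of 3 cKO libraries had the high level.

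Taken per kilobase of exon, the 10 genes spanned a wide range of levels. In WT CD103+CD11b- DCs the mean level was 139 ± 5.15 CPM per kb (SD, n = 3) for Cd83, a surface molecule of activated DCs, followed by 98.4 ± 7.37 for Havcr2. Cd86 at 85.9 ± 1.64 and Cd274 at 83.5 ± 5.32 CPM per kb came next, and their samples overlapped. A lower tier was made of Icosl (31.1 ± 2.78), Vsir (26 ± 3.01), Cd40 (19.5 ± 3.77), Pdcd1lg2 (13.2 ± 6.16) and Cd80 (12 ± 1.4 CPM per kb), in which the samples of each gene overlapped those of the next. Tnfsf4 was lowest at 0.978 ± 1.59 CPM per kb. WT CD103-CD11b+ DCs differed in order mainly in that Cd274 (92.1 ± 20.7 CPM per kb) stood above Havcr2 (60.1 ± 15.4) without overlap, and that Pdcd1lg2 (4.15 ± 1.58) stood below Cd80 (12.2 ± 3.15) without overlap. Cd83 had the highest mean per kilobase and Tnfsf4 the lowest in all 4 groups.

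**Figure D1:**
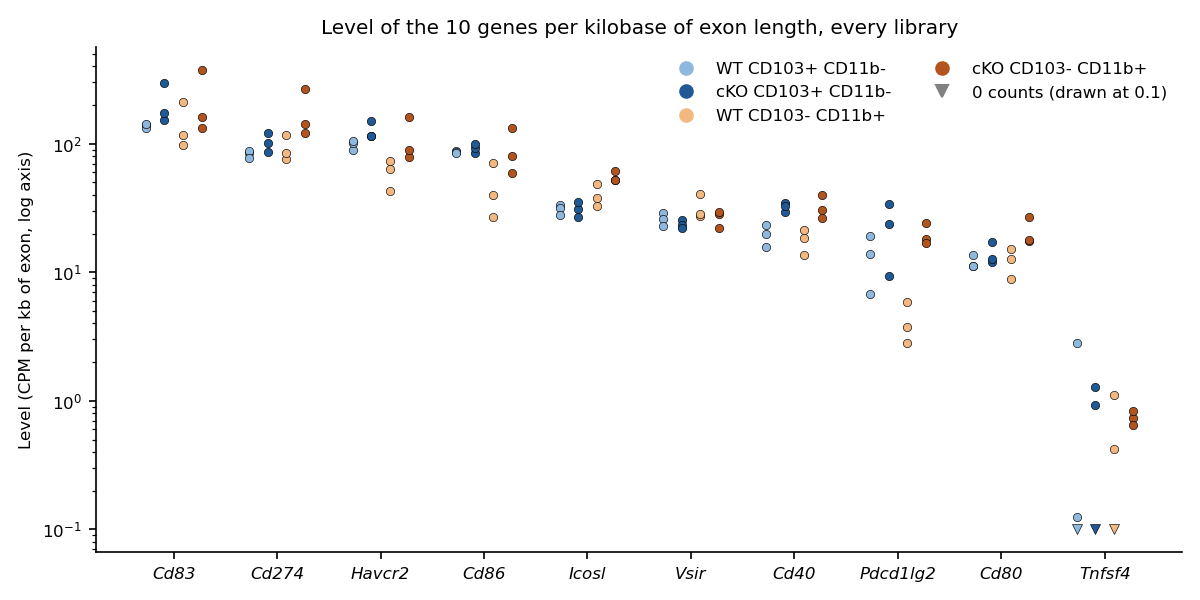
Level of each gene in every library in CPM per kb of exon length on a log axis, with 1 point per library, colours for the 4 groups and triangles at 0.1 for libraries with 0 counts. Cd83 had the highest mean in each group, Tnfsf4 lay below all other genes, and the pale orange points of Pdcd1lg2 in WT CD103-CD11b+ DCs lie at 2.82 to 5.89 CPM per kb.

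Cd80 and Cd86 lie on chromosome 16 (GRCm38, positions 38455561 to 38496335 on the plus strand and 36603869 to 36666081 on the minus strand). Cd86 was at 320, 316 and 308 CPM in the 3 WT CD103+CD11b- libraries and at 145, 98.3 and 261 CPM in WT CD103-CD11b+ libraries. In bulk samples, fewer cells that express a gene and less of its RNA per cell cannot be told apart. All 3 CD103-CD11b+ values lay below the CD103+CD11b- values, and they were spread more widely, and the difference of -0.90 ± 0.34 (log2, SE) did not pass the test (edgeR quasi-likelihood test, FDR = 0.0826). In cKO libraries Cd86 was at 307, 338 and 367 CPM in CD103+CD11b- DCs and at 214, 291 and 482 CPM in CD103-CD11b+ DCs, so that the subsets overlapped there. Cd80 was at 41.4, 50.3 and 41.4 CPM in WT and 44.6, 63.2 and 46.9 CPM in cKO CD103+CD11b- libraries. It was at 46.6, 32.6 and 55.8 CPM in WT CD103-CD11b+ libraries and at 64.4, 65.4 and 100 CPM in cKO ones, the last being the shallowest library. The cKO values did not overlap the WT values in CD103-CD11b+ DCs, and the log2 difference was 0.76 ± 0.24 (FDR = 0.132).

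Cd274 and Pdcd1lg2 are neighbours on the plus strand of chromosome 19, at 29367455 to 29388095 and 29410919 to 29471161, with 22823 bases between them. Cd274 was at 305, 320 and 282 CPM in WT and 310, 442 and 364 CPM in cKO CD103+CD11b- libraries. In CD103-CD11b+ DCs it was at 277, 306 and 419 CPM in WT and at 444, 514 and 959 CPM in cKO. The 3 cKO values lay above the 3 WT values, with a log2 difference of 0.94 ± 0.27 (edgeR FDR = 0.107) that became 0.52 without the shallowest library. Pdcd1lg2 was at 27.4, 37.3 and 13.3 CPM in WT and 46.4, 66.4 and 18.4 CPM in cKO CD103+CD11b- libraries. It was at 11.5, 7.33 and 5.53 CPM in WT CD103-CD11b+ libraries against 35.2, 47.6 and 33.1 CPM in cKO ones. The 3 WT CD103-CD11b+ libraries were thus the lowest of the 12. An antisense gene in the annotation, A930007I19Rik, overlaps the locus of Pdcd1lg2 but shares 0 exon bases with it and was at 4 to 9.69 CPM. Another, AC119228.1, shares 511 exon bases with Cd274 and has no entry of its own in the tables, and counting ignored strand.

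Upstream sequence is shown for Pdcd1lg2 and Icosl, which passed a test between subsets, and for Havcr2, which carries a Runx-type motif. The RefSeq table (GRCm38.p6) held starts for 6 of the 10 genes and none for Cd86, Cd40, Cd83 and Tnfsf4. Each line gives the 250 bases before the RefSeq start on the plus strand, chr19:29410669-29410918 for Pdcd1lg2, chr10:78069118-78069367 for Icosl and chr11:46454681-46454930 for Havcr2, with matches in capitals.
Pdcd1lg2: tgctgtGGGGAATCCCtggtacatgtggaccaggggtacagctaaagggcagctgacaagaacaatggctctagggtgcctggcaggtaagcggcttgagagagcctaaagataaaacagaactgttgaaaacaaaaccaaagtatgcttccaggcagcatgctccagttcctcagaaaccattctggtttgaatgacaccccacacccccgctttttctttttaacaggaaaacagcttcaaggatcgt
Icosl: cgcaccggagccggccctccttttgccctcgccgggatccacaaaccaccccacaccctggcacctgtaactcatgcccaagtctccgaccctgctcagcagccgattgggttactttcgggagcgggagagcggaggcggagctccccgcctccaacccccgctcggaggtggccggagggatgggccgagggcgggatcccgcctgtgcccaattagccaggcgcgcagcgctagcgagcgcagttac
Havcr2: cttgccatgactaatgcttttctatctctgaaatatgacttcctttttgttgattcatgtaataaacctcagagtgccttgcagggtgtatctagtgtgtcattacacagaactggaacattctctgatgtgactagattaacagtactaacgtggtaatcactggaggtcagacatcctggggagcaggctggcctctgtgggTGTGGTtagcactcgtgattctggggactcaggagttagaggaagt
The capitals in Havcr2 mark the Runx core TGTGGT, 46 to 41 bases before the start, which was searched on both strands and was held by 1 of the 6 genes and by 14% of 32851 promoters of the same length. The capitals in Pdcd1lg2 mark a match to the NF-kB motif, 244 to 235 bases before the start, which reads as a match on either strand and was present in 1 of the 6 genes and 3.9% of promoters. Icosl had neither match in this window. Such matches describe the letters of the sequence and not binding.

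Icosl lies at 78069302 to 78083913 on the plus strand of chromosome 10. It was at 155, 147 and 130 CPM in WT and 143, 124 and 163 CPM in cKO CD103+CD11b- libraries, and at 223, 151 and 175 CPM in WT and 242, 239 and 283 CPM in cKO CD103-CD11b+ libraries. The 3 cKO CD103-CD11b+ libraries were the highest of the 12. Tnfsf4 (chromosome 1, 161395409 to 161418410, plus strand) was at 0, 0.229 and 5.17 CPM in WT and 0, 1.71 and 2.35 CPM in cKO CD103+CD11b- libraries, and at 0.783, 0 and 2.04 CPM in WT and 1.35, 1.19 and 1.53 CPM in cKO CD103-CD11b+ libraries. The highest value rested on 32 counts and the others on 0 to 7. A count of 0 allows up to 0.666 to 1.03 CPM in those libraries, so a difference between groups was not detectable for Tnfsf4 at this depth.

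Cd40 lies at 165055627 to 165072948 on the plus strand of chromosome 2. It was at 78.6, 67.7 and 53 CPM in WT and 99.9, 117 and 111 CPM in cKO CD103+CD11b- libraries, and at 72.8, 46 and 62.8 CPM in WT and 89.4, 104 and 135 CPM in cKO CD103-CD11b+ libraries. In either subset the 3 cKO libraries lay above the 3 WT libraries, and Cd40 was the only one of the 10 genes whose difference reached an unadjusted p under 0.05 in both subsets. Cd83 (chromosome 13, 43784775 to 43803132, plus strand) was at 360, 342 and 368 CPM in WT and 396, 444 and 765 CPM in cKO CD103+CD11b- libraries. It was at 249, 298 and 540 CPM in WT and 343, 416 and 961 CPM in cKO CD103-CD11b+ libraries. In all 4 groups the library numbered 3 was the highest for Cd83 and also for Havcr2 and Tnfsf4, and the lowest for Pdcd1lg2. Among all genes tested 6.81% were highest and 8.03% lowest in the library numbered 3 of every group.

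Havcr2 (chromosome 11, 46454935 to 46481255, plus strand) was at 245, 276 and 282 CPM in WT and 312, 311 and 406 CPM in cKO CD103+CD11b- libraries. It was at 173, 118 and 200 CPM in WT and at 215, 245 and 441 CPM in cKO CD103-CD11b+ libraries. The 3 WT CD103-CD11b+ libraries were the lowest of the 12, as for Pdcd1lg2. Vsir (chromosome 10, 60346851 to 60372684, plus strand) lies within Cdh23 on the other strand, with which it shares 0 exon bases. It was at 146, 130 and 115 CPM in WT and 127, 118 and 111 CPM in cKO CD103+CD11b- libraries, and at 139, 203 and 142 CPM in WT and 143, 148 and 110 CPM in cKO CD103-CD11b+ libraries. Its groups overlapped in every comparison.

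**Figure D2:**
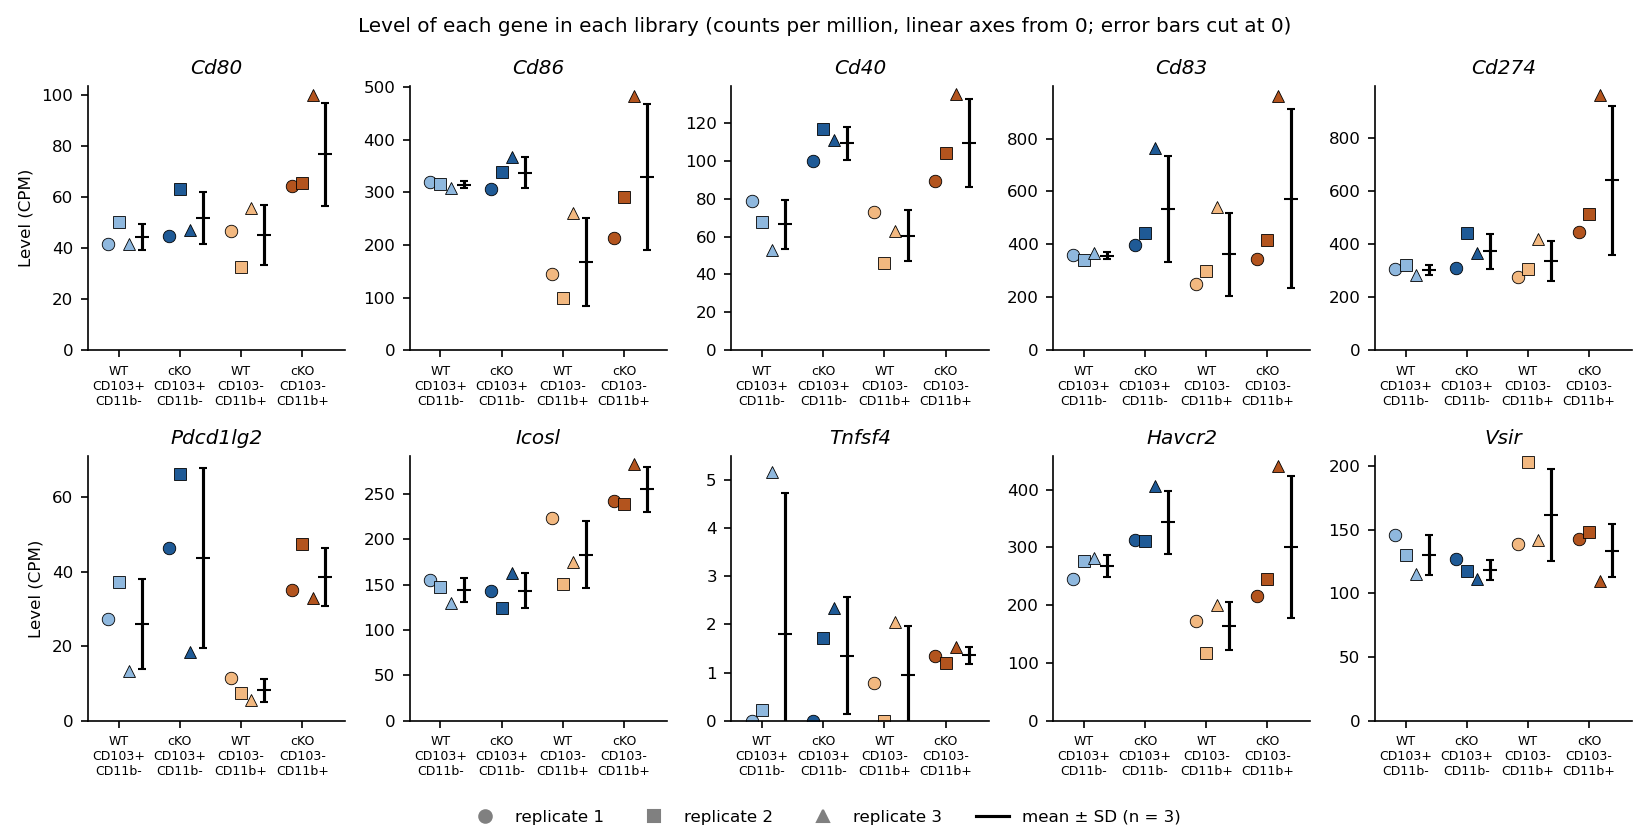
Level of each of the 10 genes in CPM on linear axes from 0, with 1 point per library, a marker shape for each replicate number and the mean ± SD (n = 3) beside each group. The triangle of cKO CD103-CD11b+ DCs, replicate 3, is the highest point for 7 genes, and Pdcd1lg2 in WT CD103-CD11b+ DCs lies at 5.53 to 11.5 CPM.

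Between cKO and WT, most of the 10 genes had higher levels in cKO CD103-CD11b+ DCs, but none passed the test. A gene was called when its FDR over all 20580 genes was under 0.05 and its fold change over 1.3 (edgeR quasi-likelihood test). By this rule 0 of the 10 genes were called in CD103-CD11b+ DCs, where 1.61% of all genes tested were called. Of the 10, 9 had a positive log2 fold change and their median was 0.80, against a median of -0.06 over all genes tested, of which 44.8% were positive. Unadjusted p-values were under 0.05 for 7 of the 10, all with higher levels in cKO, against 17.4% of all genes. The 3 cKO samples lay above the 3 WT samples for 6 genes, Cd80, Cd40, Cd274, Pdcd1lg2, Icosl and Havcr2, as they did for 9.75% of all genes tested.

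Pdcd1lg2 came nearest to a call, with a mean of 38.7 ± 7.8 CPM in cKO and 8.14 ± 3.09 CPM in WT CD103-CD11b+ DCs (SD, n = 3). Its log2 difference was 2.23 ± 0.50 (SE, 95% interval 1.14 to 3.32), or 4.69-fold, at FDR = 0.0521 in edgeR. Pdcd1lg2 was called in 11 of 22 alternative fits, in which its FDR ran from 0.000683 (DESeq2) to 0.146 and its log2 difference from 2.03 to 2.61. The call was made with 5 or more counts required in every sample (FDR = 0.0343), with replicate number as a block (FDR = 0.00881) and with a term for high or low Xist (log2 difference 2.57, FDR = 0.00904). It was not made with RLE scaling or with only the samples compared. Cd86 had a log2 difference of 0.96 (95% interval 0.22 to 1.70), Cd274 of 0.94 (0.34 to 1.53), Havcr2 of 0.87 (0.29 to 1.46) and Cd40 of 0.85 ± 0.21 (SE), with FDRs of 0.0685 to 0.174. Of these, Cd40 was called with 5 or more counts in every sample (FDR = 0.0394), with DESeq2 (FDR = 0.00777) and with the likelihood ratio test (FDR = 0.0193). Cd274 was called with DESeq2 (FDR = 0.0226) and the likelihood ratio test (FDR = 0.0342), and Havcr2 with DESeq2 (FDR = 0.0348) and the replicate block (log2 difference 0.84, FDR = 0.0445). Icosl differed by 0.47 ± 0.16 (FDR = 0.151), Cd83 by 0.66 ± 0.40 (FDR = 0.42) and Vsir by -0.27 ± 0.17 (FDR = 0.432). Without the shallowest library, replicate 3 of cKO CD103-CD11b+ DCs, the log2 differences were 0.59 for Cd86, 0.07 for Cd83 and 0.49 for Havcr2. That of Pdcd1lg2 was 2.32, and it was not called (FDR = 0.0804). The median of the 10 was then 0.51, with 9 positive and 6 at an unadjusted p under 0.05.

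In CD103+CD11b- DCs, none of the 10 genes was called between genotypes, beside 1.02% of all genes tested, and 7 had a positive log2 fold change, with a median of 0.26 against -0.02 over all genes. Cd40 had a mean of 109 ± 8.81 CPM in cKO and 66.5 ± 12.9 CPM in WT, a log2 difference of 0.72 ± 0.21 (95% interval 0.27 to 1.18, FDR = 0.158). Of the alternatives run, DESeq2 was the one that called it (FDR = 0.0292). Pdcd1lg2 had a log2 difference of 0.77 with a 95% interval from -0.25 to 1.78, which spans changes in either direction, and Cd86 of 0.10 with an interval from -0.63 to 0.83. The 3 cKO samples lay above the 3 WT samples for Cd40, Cd83 and Havcr2, a pattern shown by 7.51% of all genes.

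Whether the cKO effect itself differed between the subsets was tested by the interaction of genotype and subset. None of the 10 genes was called, beside 0.651% of all genes tested. The interaction of Pdcd1lg2 was 1.46 on the log2 scale (95% interval -0.01 to 2.93, unadjusted p = 0.051, FDR = 0.454) and that of Icosl 0.48 (95% interval -0.01 to 0.96, FDR = 0.464). For Cd40 it was 0.12, with an interval from -0.52 to 0.76. Of the 10 interactions 9 were positive, with a median of 0.53, against 49.4% positive and a median of -0.01 over all genes tested, and none had an unadjusted p under 0.05. Without replicate 3 of cKO CD103-CD11b+ DCs 7 were positive, with a median of 0.27, and without all 4 libraries numbered 3, 8 were positive, with a median of 0.40 and 2 at an unadjusted p under 0.05. A larger effect in CD103-CD11b+ than in CD103+CD11b- DCs was therefore not shown for any of the 10 genes at this number of samples.

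**Figure D3:**
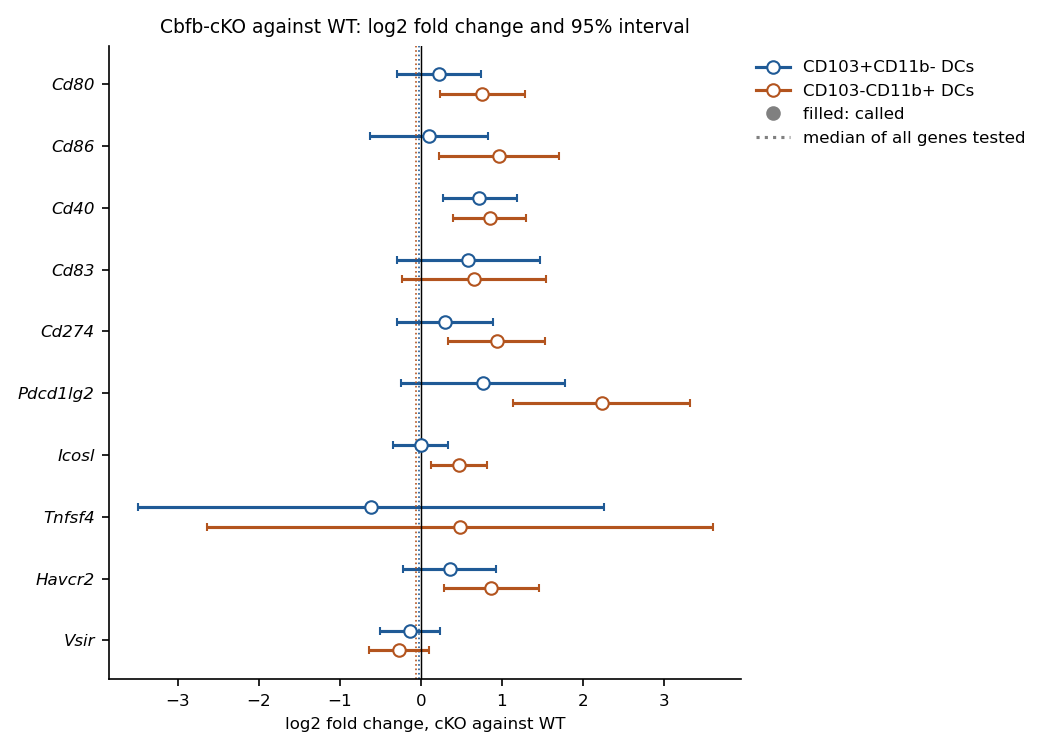
Log2 fold change of cKO against WT for each gene, with 95% intervals, in CD103+CD11b- DCs (blue) and CD103-CD11b+ DCs (orange), beside dotted lines at the median of all genes tested. All points are open because no gene was called, and the orange points of 9 genes lie above 0, that of Pdcd1lg2 at 2.23.

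Between the subsets, Pdcd1lg2 was lower in CD103-CD11b+ DCs of WT mice and Icosl was higher in CD103-CD11b+ DCs of cKO mice. In WT, Pdcd1lg2 had a mean of 8.14 ± 3.09 CPM in CD103-CD11b+ and 26 ± 12.1 CPM in CD103+CD11b- DCs, 3.13-fold lower, with a log2 difference of -1.64 ± 0.49 (95% interval -2.73 to -0.56, edgeR FDR = 0.0395). It was the 1 gene of the 10 that was called, whereas 18.8% of all genes tested were called. Samples did not overlap for Cd86, Pdcd1lg2 and Havcr2, all lower in CD103-CD11b+ DCs, as was the case in either direction for 38.1% of all genes. Havcr2 had a log2 difference of -0.71 ± 0.26 (FDR = 0.083). The call of Pdcd1lg2 was lost without replicate 1 or replicate 2 of WT CD103+CD11b- DCs (FDR = 0.0986 and 0.136), without replicate 2 or replicate 3 of WT CD103-CD11b+ DCs (FDR = 0.1 and 0.103) and without replicate 1 of cKO CD103+CD11b- DCs (FDR = 0.0558), and its log2 difference remained between -2.06 and -1.32 in fits without 1 of the 6 samples compared. When replicate 3 of cKO CD103-CD11b+ DCs was left out, 3 genes were called, Cd86 (FDR = 0.0462) and Havcr2 (FDR = 0.0224) beside Pdcd1lg2, the spread being estimated over all 4 groups. With replicate number as a block, Cd86 (FDR = 0.0271) and Havcr2 (FDR = 0.0235) were called too.

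In cKO mice, Icosl had a mean of 255 ± 24.6 CPM in CD103-CD11b+ and 144 ± 19.9 CPM in CD103+CD11b- DCs, 1.77-fold higher (log2 difference 0.83 ± 0.16, 95% interval 0.48 to 1.17, FDR = 0.00456). It was the 1 gene called of the 10, beside 16.1% of all genes tested, and was called in all 23 alternative fits at log2 differences of 0.73 to 0.93. The corresponding difference in WT was 0.35 ± 0.16 (FDR = 0.137). Cd274 differed by 0.78 ± 0.27 (FDR = 0.071), and by 0.36 when the shallowest library was left out. Cd274 was called as well when replicate number was used as a block over the 4 groups (log2 difference 0.73, FDR = 0.0499), but not with the block set within each genotype (log2 difference 0.71, FDR = 0.0625). Pdcd1lg2 differed by -0.18 ± 0.46 (95% interval -1.19 to 0.83). Samples did not overlap for Cd80, Cd274 and Icosl, all higher in CD103-CD11b+ DCs, as in either direction for 34% of all genes. In the test of any difference among the 4 groups, Icosl (FDR = 0.00615) was the 1 gene under an FDR of 0.01, beside 12% of all genes tested, followed by Cd40 (FDR = 0.0139) and Pdcd1lg2 (FDR = 0.0182). That call of Icosl was lost when any of 8 of the 12 libraries was left out, namely replicates 1 and 2 of WT and of cKO CD103+CD11b- DCs, replicate 3 of WT CD103-CD11b+ DCs and each of the 3 cKO CD103-CD11b+ libraries.

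**Figure D4:**
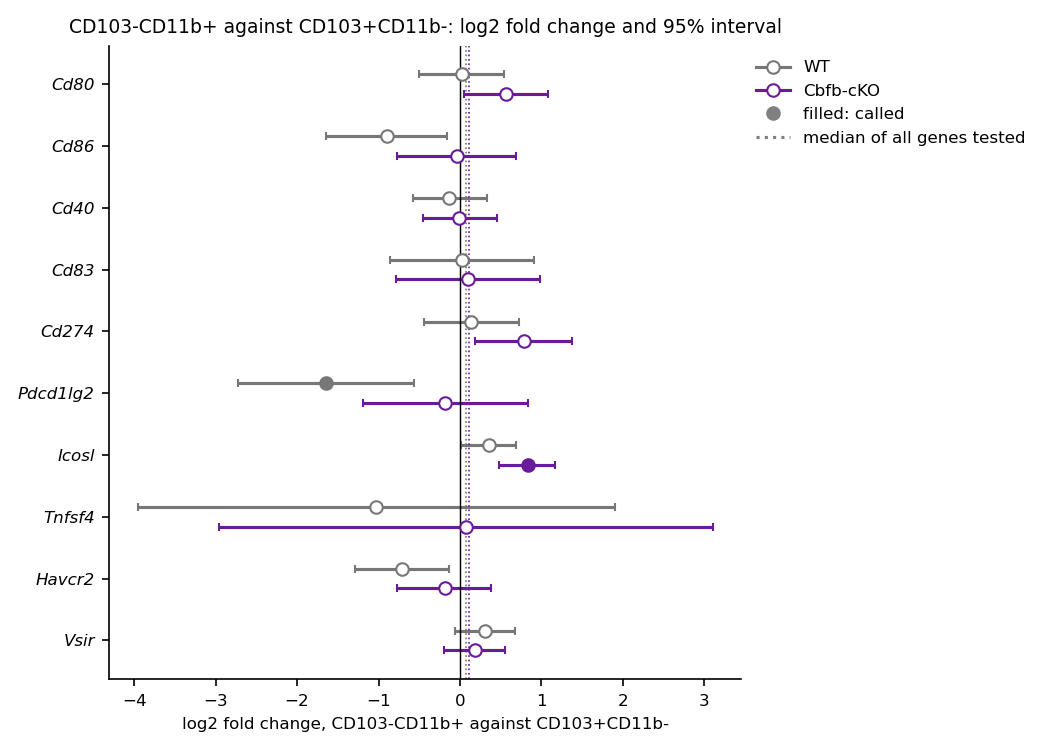
Log2 fold change of CD103-CD11b+ against CD103+CD11b- DCs for each gene, with 95% intervals, in WT (grey) and cKO (purple), beside dotted lines at the median of all genes tested. Filled points mark the called genes, Pdcd1lg2 in WT at -1.64 and Icosl in cKO at 0.83.

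Ratios of ligands that share receptors were compared within libraries, per kilobase of exon. The log2 ratio of Cd86 to Cd80 was 2.95, 2.65 and 2.90 in WT CD103+CD11b- libraries and 1.65, 1.59 and 2.23 in WT CD103-CD11b+ libraries. It did not overlap between the subsets, and the difference of -1.01 had p = 0.1 in a two-sided exact permutation test, the smallest p that 3 against 3 samples allow. In cKO the ratio was 2.79, 2.43 and 2.97 against 1.74, 2.16 and 2.27, again without overlap (difference -0.67, exact permutation p = 0.1). The log2 ratio of Cd274 to Pdcd1lg2 was 3.64, 4.40 and 5.23 in WT CD103-CD11b+ libraries, above its values of 2.57, 2.20 and 3.47 in WT CD103+CD11b- libraries (difference 1.68, exact permutation p = 0.1). In cKO CD103-CD11b+ libraries it was 2.75, 2.53 and 3.95, and overlapped both the WT values of that subset (exact permutation p = 0.2) and the cKO CD103+CD11b- values of 1.84, 1.84 and 3.39 (exact permutation p = 0.3). Within the pairs of cKO libraries that share a number, the CD103-CD11b+ value lay above the other in 3 of 3, by 0.91, 0.69 and 0.56, and for Cd86 to Cd80 it lay below in 3 of 3 (exact sign-flip permutation p = 0.25 for each, the smallest that 3 pairs allow). In every group the library numbered 3 had the highest ratio of Cd274 to Pdcd1lg2. Between genotypes, Cd86 to Cd80 differed by -0.11 in CD103+CD11b- (exact permutation p = 0.7) and 0.24 in CD103-CD11b+ DCs (exact permutation p = 0.3). Cd274 to Pdcd1lg2 differed by -0.39 in CD103+CD11b- (exact permutation p = 0.5) and -1.35 in CD103-CD11b+ DCs (exact permutation p = 0.2). These are 8 comparisons, and none can pass a threshold of 0.05 in this design.

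**Figure D5:**
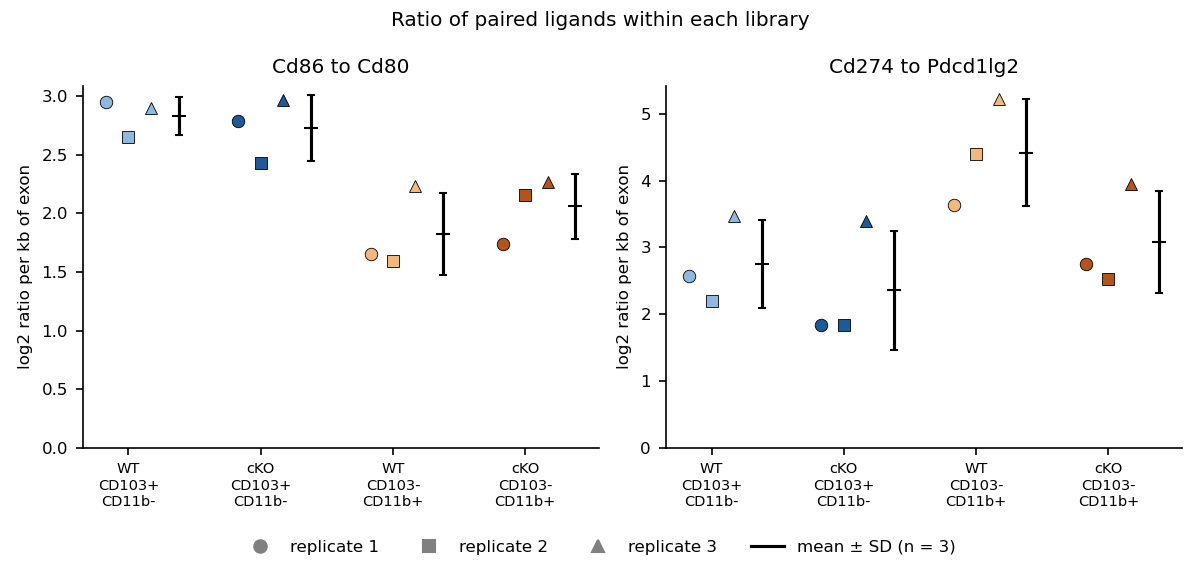
Log2 ratio of Cd86 to Cd80 (left) and of Cd274 to Pdcd1lg2 (right) in each library, per kb of exon, by group, with marker shapes for replicate numbers and the mean ± SD (n = 3) beside the points. Ratios of Cd86 to Cd80 lie at 2.43 to 2.97 in the CD103+CD11b- libraries and at 1.59 to 2.27 in the CD103-CD11b+ libraries.

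Among the 10 genes, Cd86 and Havcr2 varied most alike over the 12 libraries (Pearson r of log2 CPM 0.94), followed by Cd80 and Cd274 (r = 0.922). Genes most like Pdcd1lg2 among 10684 genes with a mean of at least 10 CPM were N4bp2l1 (r = 0.979), Tmem168 (r = 0.938) and the orphan receptor gene Gpr82 (r = 0.937). Those most like Icosl were Atf6, a transcription factor of the endoplasmic reticulum stress response (r = 0.941), Bin1, a membrane-bending protein gene (r = 0.939), and Elmo1, which acts in Rac activation (r = 0.937). These are descriptions over 12 libraries that fall into 4 groups and differ in depth.

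Of 22 other costimulatory and checkpoint genes 19 were tested. Between subsets in WT, 5 were called higher and 1 lower in CD103-CD11b+ DCs, where 18.8% of all genes tested were called, with a median log2 difference of 0.85 against 0.07 over all genes tested. Tnfsf8 (CD30 ligand) was at 23 ± 8.83 CPM in CD103-CD11b+ and 5.11 ± 1.53 CPM in CD103+CD11b- DCs of WT (FDR = 0.00161), and Tnfsf9 (4-1BB ligand) at 107 ± 56.3 and 16.8 ± 4.48 CPM (FDR = 0.00949). Lgals9, which encodes the TIM-3-binding lectin galectin-9, was at 117 ± 18.3 and 41.7 ± 10.4 CPM (FDR = 0.00145), and Pvr, a ligand of TIGIT and CD226, at 145 ± 30.4 and 53.8 ± 9.61 CPM (FDR = 0.018). Btla, an inhibitory receptor for HVEM, was lower, at 148 ± 31 against 426 ± 55 CPM (FDR = 0.00114). In cKO, 7 were called higher and 2 lower, where 16.1% of all genes tested were called. Tnfsf8 was at 38.4 ± 1.04 against 2.45 ± 0.433 CPM (FDR = 3.07e-05), Lgals9 at 87.9 ± 1.82 against 24.7 ± 6.74 CPM (FDR = 0.00025) and Btla at 140 ± 38.3 against 395 ± 28.6 CPM (FDR = 0.000643).

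Between genotypes, 2 of these 19 genes were called, both lower in cKO CD103+CD11b- DCs, where 1.02% of all genes tested were called. Sirpa, which encodes the receptor for CD47 and also marks CD11b+ DCs, was at 30.9 ± 22.6 CPM in cKO and 212 ± 73.1 CPM in WT (log2 difference -2.74, FDR = 0.042). With Sirpa, 4 of the 8 CD11b+ DC markers were called lower in this comparison, the others being Irf4, Cd209a and Clec4a4, and the list's median was -2.26. The 8 markers summed to 436 to 680 CPM in WT and 123 to 170 CPM in cKO CD103+CD11b- libraries, and their part in the levels of Sirpa and Ceacam1 was not tested. Ceacam1, an adhesion molecule that also binds TIM-3, was at 10.2 ± 6 CPM in cKO and 40.6 ± 13.5 CPM in WT (log2 difference -1.94, FDR = 0.0473). In the cKO mice both were called higher in CD103-CD11b+ than in CD103+CD11b- DCs, Sirpa at FDR = 0.000607 and Ceacam1 at FDR = 0.00866. None of the 19 was called between genotypes in CD103-CD11b+ DCs or in the interaction, beside 1.61% and 0.651% of all genes tested. The medians of the 19 in these 2 comparisons were -0.00 and 0.08 on the log2 scale.

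All 15 CD40 signalling genes were tested and none was called between genotypes, beside 1.02% of all genes in CD103+CD11b- and 1.61% in CD103-CD11b+ DCs, while 3 were called between subsets in WT and 3 in cKO, beside the 18.8% and 16.1% of all genes. Between genotypes in CD103-CD11b+ DCs, 14 of the 15 had a positive log2 difference with a median of 0.40, against 44.8% positive and a median of -0.06 over all genes. In CD103+CD11b- DCs it was 13 with a median of 0.26, against 46.7% and -0.02. The 15 genes summed to 3920, 4260 and 6960 CPM in cKO and 3240, 3250 and 4220 CPM in WT CD103-CD11b+ libraries, so that the shallowest library, replicate 3 of cKO, stood well above the other two, and the list was not refitted without it. Between subsets, Tnfaip3, the inhibitor of NF-kB signalling also called A20, was higher in CD103-CD11b+ DCs both in WT (log2 difference 1.04, FDR = 0.0418) and in cKO (1.46, FDR = 0.01). Il12b, the shared p40 chain of IL-12 and IL-23, was at 0.58 ± 0.257 CPM in WT CD103-CD11b+ and 39.2 ± 4.96 CPM in WT CD103+CD11b- DCs (FDR = 5.79e-05), and at 3.34 ± 2.03 against 74.5 ± 22.2 CPM in cKO (FDR = 4.90e-05). Nfkb1 was higher in CD103-CD11b+ DCs in WT by 0.45 (FDR = 0.0414) and Traf3, an adaptor of CD40, in cKO by 0.86 (FDR = 0.00376).

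Of 15 genes linked to DC maturation 14 were tested, and 1 was called between genotypes, in CD103-CD11b+ DCs, where 1.61% of all genes were called. Slco5a1, a transporter gene of this list, was at 126, 133 and 66.3 CPM in cKO and 15.5, 13 and 13.4 CPM in WT CD103-CD11b+ libraries (log2 difference 2.96 ± 0.60, FDR = 0.04). The median of the 14 genes was 0.77 in that comparison against -0.06 over all genes, and 10 were positive. Their summed level was 1210 to 1400 CPM in the cKO CD103-CD11b+ libraries and 657 to 923 CPM in the WT ones. Ccr7, the receptor that takes maturing DCs to lymph nodes, was at 41.1, 81 and 163 CPM in WT and 211, 249 and 409 CPM in cKO CD103-CD11b+ libraries, was not called, and was singled out after its values were seen. Between subsets 3 of the 14 were called in WT, beside 18.8% of all genes, and 1 in cKO, beside 16.1%. In WT, Cacnb3 was lower in CD103-CD11b+ DCs (log2 difference -2.15, FDR = 0.0378), and Socs2, a suppressor of cytokine signalling, and the tetraspanin gene Cd63 were higher (1.86, FDR = 0.0306, and 1.61, FDR = 0.0342). In cKO, Samsn1 was higher in CD103-CD11b+ DCs by 1.32 (FDR = 0.0195).

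Markers of 5 other cell types were counted in the same libraries. The 8 macrophage markers summed to 160 to 352 CPM in WT and 296 to 467 CPM in cKO CD103-CD11b+ libraries, against 18 to 69.8 CPM in CD103+CD11b- libraries, although sorting had excluded CD64+ cells. Between subsets, 6 of the 8 were called in WT, beside 18.8% of all genes, and 5 in cKO, beside 16.1%, all higher in CD103-CD11b+ DCs. They included Fcgr1, which encodes CD64 (FDR = 0.00466 in WT and 0.00334 in cKO). Between genotypes in CD103-CD11b+ DCs, where 1.61% of all genes were called, 1 of the 8 was called, Adgre1, which encodes F4/80, at 197 ± 50.7 CPM in cKO and 51.9 ± 23.2 CPM in WT (FDR = 0.0336). The median of the 8 in that comparison was -0.16, with 3 positive. The 8 B-cell markers summed to 115 to 293 CPM in WT and 77 to 509 CPM in cKO CD103-CD11b+ libraries, against 28.2 to 64.8 CPM in CD103+CD11b- libraries. Of these 8, 1 was called between subsets in WT, beside 18.8% of all genes, and 3 in cKO, beside 16.1%. All were higher in CD103-CD11b+ DCs. B cells and macrophages are known to carry CD80, CD86, CD40 and ICOS ligand, and the sort on CD11c+MHC-II+ cells would remove B cells without CD11c. Between genotypes in CD103-CD11b+ DCs, 7 of the 8 B-cell markers were positive, with a median of 1.36, and 1 was called, beside the same 1.61%, namely Ms4a1, which encodes CD20, at 73 ± 25.9 CPM in cKO and 5.49 ± 3 CPM in WT (log2 difference 3.72, FDR = 0.00455). The 8 T-cell markers summed to 8.03 to 134 CPM over all libraries. None was called in any of the 5 comparisons, in which 0.651% to 18.8% of all genes were called. The 6 plasmacytoid DC markers tested summed to 843 to 1970 CPM in WT and 326 to 709 CPM in cKO CD103+CD11b- libraries, and to 635 to 931 and 397 to 743 CPM in CD103-CD11b+ libraries. None of the 6 was called between genotypes, beside 1.02% of all genes in CD103+CD11b- and 1.61% in CD103-CD11b+ DCs. Between subsets, 3 in WT and 1 in cKO were called lower in CD103-CD11b+ DCs, beside 18.8% and 16.1% of all genes. The 6 epithelial markers tested summed to 108 to 264 CPM in WT and 20.7 to 102 CPM in cKO CD103+CD11b- libraries, and to 193 to 352 and 53.8 to 99.9 CPM in CD103-CD11b+ libraries. Members of this list differed in direction in CD103+CD11b- DCs, where Cdh1 was at 25.5 ± 19.7 CPM in cKO and 150 ± 75.8 CPM in WT and Epcam was called lower (11.4 ± 6.36 against 42.9 ± 6.91 CPM, FDR = 0.0432), while 4 of the 6 were positive and the median was 1.74. No tested marker of these 5 lists was at 0 in all libraries of a group, and the part of these markers in the levels of the 10 genes was not tested.

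The partners of these molecules on T cells were also counted. The 6 genes, for 5 receptors and for the CD40 ligand, Cd28, Ctla4, Icos, Pdcd1, Tnfrsf4 and Cd40lg, summed to 85.4 to 171 CPM in CD103+CD11b- libraries and 36 to 121 CPM in CD103-CD11b+ libraries. Ctla4, the inhibitory receptor for CD80 and CD86, made up most of the sum in CD103+CD11b- libraries, at 59.2, 77.1 and 121 CPM in WT and 49.7, 73.7 and 149 CPM in cKO. Pdcd1, which encodes PD-1, was at 0 to 2.14 CPM and Cd40lg at 0 to 5.33 CPM over the 12 libraries. None of the 6 genes was called in any of the 5 comparisons. Of all genes tested, 1.02% and 1.61% were called between genotypes, 0.651% in the interaction, and 18.8% and 16.1% between subsets.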

How the data were processed

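RNA-seq of 12 samples of sorted small-intestine DCs was used, 3 in each of 4 groups taken from the sample titles. Cells had been gated as CD45+CD64-CD11c+MHC-II+. The authors trimmed reads with Trim Galore, mapped them to mm10 with STAR 2.7 and an Ensembl GRCm38 annotation, removed low-quality and duplicated reads, and counted reads per gene with HTSeq without regard to strand. The deposited values are raw counts per gene, and entries that name no gene (59.7% to 66.1% of reads were in no feature) were left out. Libraries were made by a modified RamDA-seq protocol from few sorted cells without molecular identifiers, so removal of duplicates can lower counts of abundant genes, and a limit of 3 counts covers counting error only.

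The study's wording of its filter on counts can be read as 5 counts in at least 1 sample or in every sample; the first was used (20580 genes) and the second tried as an alternative (11765 genes). Genes were tested with edgeR 4.0.16 (R 4.3.3) by the quasi-likelihood test with TMM scaling, 4 group means and Benjamini-Hochberg adjustment over all genes tested. Identifiers were matched to GENCODE M21 (99.8% matched), which gave symbols, positions and exon lengths. Ratios and correlations used log2 CPM with a prior count of 2. Standard errors and 95% intervals come from the quasi-likelihood test. Alternatives were other filters, RLE scaling, DESeq2 1.42.0, a likelihood ratio test, only the samples compared, a replicate block, other limits and leaving out each sample, and, chosen after seeing the data, leaving out the libraries numbered 3, a term for Xist level and paired ratios in cKO. The scripts were tested on simulated data.

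Deviations from group means of same-numbered cKO libraries of the 2 subsets correlated at 0.254 to 0.516, and these numbers were taken to pair the samples. Same-numbered libraries of cKO CD103+CD11b- and WT CD103-CD11b+ DCs, of different genotypes, also correlated, at 0.218 to 0.356. Such correlation therefore cannot show that libraries came from the same mouse. Xist was high or low alike in same-numbered libraries of the 2 subsets, in WT as in cKO. In the other comparisons numbers were not taken to pair the samples. Replicates of a group differed beyond sampling noise (chi-square per degree of freedom of 2.62 to 25.9 over 12 pairs).

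The 10 genes and the lists were chosen with earlier results of these data known. Named genes are the 10, the called genes of 3 lists (up to 5 of smallest p per list and comparison) and the 3 genes most like each called member. Ccr7, the T-cell receptor genes and the single cell type markers named with values were added after their values were seen.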

Additional observations from a re-analysis of the deposited data

How the results depend on the processing

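The alternatives were run for the 10 genes and not for the genes of the other lists. The called differences, Pdcd1lg2 between subsets in WT and Icosl between subsets in cKO, kept their sign under all of them. In the count of the 10 genes called between genotypes in CD103-CD11b+ DCs, 0 became 2 with 5 or more counts in every sample, 1 with filterByExpr, 1 with no filter beyond 1 count, 4 with DESeq2, 3 with the likelihood ratio test, 2 with the replicate block, 1 without the libraries numbered 3 and 1 with the Xist term, and was 0 to 1 with single samples left out. In the same order of settings, the share called of all genes was 4.87%, 3.07%, 1.21%, 5.52%, 5.12%, 4.13%, 0.946% and 1.86%, against 1.61% above. In CD103+CD11b- DCs the count of the 10 became 1 with DESeq2, which called 3.17% of all genes, against 1.02% above. Between subsets in WT, 1 became 2 with the likelihood ratio test, 3 with the replicate block, 3 with the block within genotype, 3 without the libraries numbered 3, 0 with only the samples compared and 0 at an FDR of 0.01, and was 0 to 3 with single samples left out. For the first 5 of these settings the share called of all genes was 24%, 23.7%, 25.2%, 19.4% and 13.4%, against 18.8% above. Between subsets in cKO, 1 became 2 with 5 or more counts in every sample, DESeq2, the likelihood ratio test and the replicate block, and was 1 to 2 with single samples left out. The share called of all genes in those 4 settings was 24.1%, 20%, 20.9% and 21%, against 16.1% above. The count for any difference among the groups, 1, became 2 with 5 or more counts in every sample, 3 with no filter beyond 1 count, 5 with DESeq2, 5 with the likelihood ratio test and 2 with the replicate block, and was 0 to 2 with single samples left out. For that test the share of all genes was 12% above and is not given for the alternatives, so these counts have no background beside them. The interaction count was 0 under every alternative run. Each difference of a ratio moved by less than 1 SD, pooled over the 2 groups compared. The Cd274 to Pdcd1lg2 difference between subsets in cKO, 0.72, ran from 0.29 to 1.24 with single samples left out. That of Cd86 to Cd80 between genotypes in CD103+CD11b- DCs, -0.11, ran from -0.23 to 0.04. Without the libraries numbered 3, both Cd86 (FDR = 0.00789) and Havcr2 (FDR = 0.0271) joined Pdcd1lg2 between subsets in WT. Over all genes, the count called between genotypes in CD103+CD11b- DCs was 210, and 652 with DESeq2, 598 with the likelihood ratio test, 522 with the block, 320 with no filter beyond 1 count and 46 to 241 with single samples left out. In CD103-CD11b+ DCs it was 331, and 1136, 1054, 849 with the same 3 settings, 573 with 5 or more counts in every sample, 190 without the libraries numbered 3, 27 with only the samples compared and 121 to 517 with single samples left out. For the interaction it was 134, and 506, 413, 330, 205 with no filter beyond 1 count, 44 without the libraries numbered 3 and 29 to 210 with single samples left out. Between subsets it was 3860 in WT and 3307 in cKO, 1410 to 4373 and 2124 to 3638 with single samples left out. The cause of these changes was not tested. Where replicate numbers were not taken to pair the samples, same-numbered samples correlated at -0.041 to 0.256 (genotypes, CD103+CD11b-), 0.0789 to 0.536 (genotypes, CD103-CD11b+) and -0.0744 to 0.395 (subsets, WT), and 2 of 3 samples correlated best with their own number in each. Depth limits Tnfsf4, and 3 samples a group limit the intervals of all 10 genes.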
